A study of Mus musculus with 8 samples.

Results

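The genes described here are 6 mouse genes that mark the primed epiblast and the primitive streak, Fgf5, Fgf8, Otx2, T, Eomes and Mixl1, taken by name from a table of 23284 genes. They were followed in P19 cells, an embryonal carcinoma line of the mouse that is kept undifferentiated in culture and resembles cells of the early embryo. Cells received an siRNA against Upf3a or a control siRNA, and 24 h later all of them received actinomycin D, which blocks transcription. RNA was taken 0, 15, 105 and 225 min after the drug went on, which gives 8 conditions: Upf3a knockdown at 4 times and control at the same 4 times. The Upf3a protein takes part in nonsense-mediated decay, which removes mRNAs with a stop codon taken for a premature one, and the stated aim was to examine how stable transcripts are without it. The knockdown was by transient siRNA in a single line, and the samples named as loss of UPF3A are knockdowns and not deletions. The labels list 2 cultures for each condition, while the table holds 1 value per gene and condition. In what follows n counts time points and not cultures, and p-values measure only the disagreement between time points.

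The epiblast is the tissue from which the body of the embryo forms. Before gastrulation its cells pass from a naive to a primed state, in which they express Fgf5 and Otx2, and signals of the Nodal, Wnt and FGF pathways then turn on T, Eomes and Mixl1 in the primitive streak, where mesoderm and endoderm arise. Fgf5 and Fgf8 are secreted growth factors, Otx2 and Mixl1 are homeobox transcription factors, and T (brachyury) and Eomes are transcription factors of the T-box family. Several mRNAs of developmental regulators are known to be short-lived, so that their level follows transcription closely.

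Values are FPKM, sequenced fragments per kilobase of transcript, scaled to the library's size, and each comes with a lower and an upper limit given by the authors. FPKM totals per condition ran from 537437 to 923333 in the knockdown arm and from 537350 to 880304 in the control arm, and read depth is unknown. Upf3a itself averaged 4.68 ± 0.47 FPKM in knockdown cells and 14.1 ± 0.60 FPKM in control cells (SD, n = 4 time points). The 7 markers of undifferentiated P19 cells, among them Pou5f1, Nanog and Lin28a, summed to 2323 to 3963 FPKM in knockdown cells and 1964 to 3305 FPKM in control cells. Of these markers 4 of 7 were called higher in knockdown cells and none lower by limma, with 1 lower at an unadjusted p below 0.05, after quantile normalization or without 225 min. Of all genes 26.1% were called higher and 22.3% lower. The 8 markers of formed mesoderm and endoderm summed to 2.37 to 6.99 FPKM in knockdown cells and 2.81 to 6.83 FPKM in control cells, and Mesp1, Msgn1, Hand1 and Sox17 stayed below 1 FPKM in every condition. Of the 8 neural markers 7 were in the table, and they summed to 43.8 to 58.6 FPKM in knockdown cells and 47.0 to 66.9 FPKM in control cells, mostly Tubb3, while Sox1, Pax6, Neurog1 and Neurod1 stayed below 1 FPKM. The 7 fibroblast markers summed to 8.95 to 13.0 FPKM in knockdown cells and 10.6 to 16.2 FPKM in control cells. Of the 3 that were tested 1 was called lower. With no filter on low values 3 were lower, and 0 without the time term or with a mean of at least 5 FPKM. The part of these markers in the results was not tested.

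The first comparison asked whether the mRNAs differed in level between the arms. Fgf5, Fgf8, T, Eomes and Mixl1 were higher after Upf3a knockdown at all 4 times, by 1.45-fold to 3.753-fold in FPKM, while Otx2 was at nearly the same level in both arms. By limma on log2(FPKM + 1), with time point as a factor and p-values adjusted over the 11452 genes that averaged at least 1 FPKM, 5 of the 6 passed an adjusted p of 0.05 as higher, none was lower even at an unadjusted p below 0.05, and Otx2 did not pass. Among the 5, Mixl1 (mean 0.91 FPKM in control cells, 1.57 FPKM in knockdown cells) reached that filter only through the knockdown arm. It is kept in the counts, ranks and median given here. The background was 26.1% of tested genes higher and 22.3% lower, so a call in itself is common, and the 5 ranked 15, 115, 204, 230 and 909 from the highest difference. The split of all genes was 2986 higher and 2557 lower, and 3826 higher and 1282 lower when ribosomal protein genes set the scale, where the same 5 were called. The median level difference of the 6 was 0.71 log2 units, beside 0.0046 for all genes tested. The 6 were chosen with earlier results of these data known, so their share beside that of all genes is a description. In RNA from whole cultures, more cells that express a gene and more mRNA per cell cannot be told apart.

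**Figure D1:**
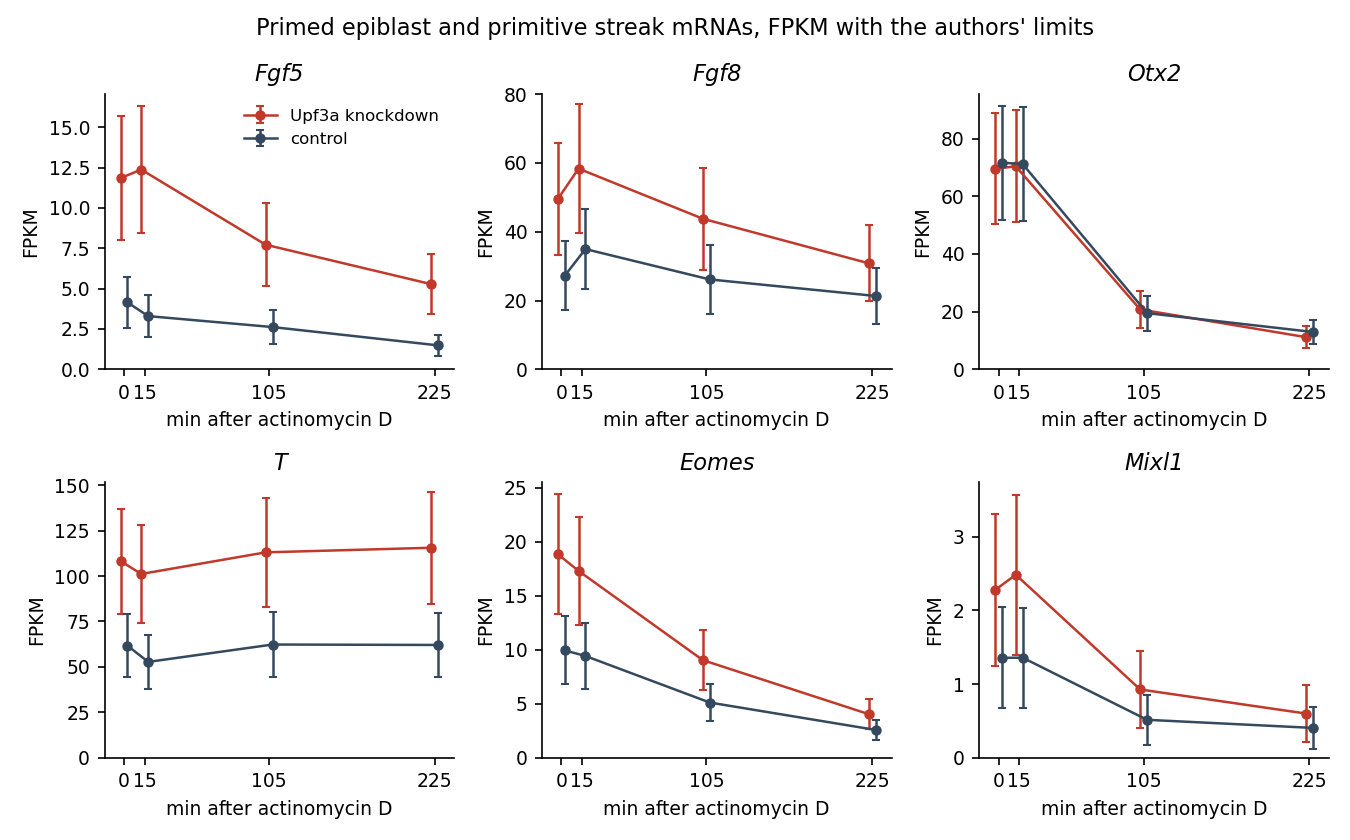
FPKM of each gene (vertical axis) against minutes after actinomycin D (horizontal axis), in Upf3a knockdown cells (red) and control cells (dark blue); points are the deposited values, bars are the authors' lower and upper limits, and the arms are set slightly apart. Fgf5 and T lie above control at every time with limits apart, Otx2 falls along the same course in both arms, and T keeps its FPKM.

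Among the ligands, Fgf5, a growth factor of the primed epiblast, differed most between the arms. It stood at 11.9, 12.4, 7.72 and 5.27 FPKM in knockdown cells at 0, 15, 105 and 225 min, against 4.15, 3.30, 2.62 and 1.48 FPKM in control cells. The lowest knockdown value lay above the highest control value, although both arms lost the mRNA over time. The ratio was 2.86 at 0 min, 3.753 at 15 min, 2.95 at 105 min and 3.56 at 225 min. The fitted level difference was 1.39 ± 0.07 log2 units (SE, adjusted p = 4.7e-05 by limma), a 2.62-fold difference on the log2(FPKM + 1) scale. It held rank 15 from the top among the 11452 genes tested, and the difference was 1.66 log2 units with 0.1 FPKM added and 0.84 with 5 FPKM added.

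Fgf8, a growth factor of the primitive streak and later of several organizing centres, stood at 49.5, 58.3, 43.8 and 30.8 FPKM in knockdown cells, against 27.2, 34.9, 26.1 and 21.3 FPKM in control cells. It was higher in knockdown cells at each time, and its highest value was at 15 min in both arms. The arms overlapped across times, since the knockdown value at 225 min lay below the control value at 15 min. The fitted difference was 0.70 ± 0.06 log2 units (SE, adjusted p = 1.7e-04 by limma), and the ratio ran from 1.82 at 0 min to 1.45 at 225 min.

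T, which is needed for mesoderm to form and move out of the streak, had the highest FPKM of the 6 at every time in knockdown cells. It stood at 108, 101, 113 and 116 FPKM in knockdown cells, against 61.7, 52.8, 62.3 and 62.1 FPKM in control cells. The arms did not overlap, and after a dip at 15 min FPKM at 225 min was no lower than at 0 min in either arm. The fitted difference was 0.87 ± 0.04 log2 units (SE, adjusted p = 4.7e-05 by limma), at rank 115 from the top, and the ratio kept between 1.754 and 1.92.

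Eomes, a regulator of mesoderm and of definitive endoderm, stood at 18.8, 17.3, 9.03 and 4.04 FPKM in knockdown cells, against 9.94, 9.42, 5.11 and 2.58 FPKM in control cells. The difference was seen at each time but the arms overlapped across times, because both fell. It amounted to 0.72 ± 0.06 log2 units (SE, adjusted p = 2.2e-04 by limma). Mixl1, a homeobox factor of the streak that acts in mesoderm and endoderm, was the lowest of the 6, at 2.28, 2.49, 0.93 and 0.60 FPKM in knockdown cells, against 1.36, 1.36, 0.52 and 0.41 FPKM in control cells. Its fitted difference was 0.39 ± 0.07 log2 units (SE, adjusted p = 0.0025 by limma). The added 1 FPKM shrinks differences of a gene this low: with 0.1 FPKM added instead the difference was 0.68 log2 units and with 5 FPKM added it was 0.15 (adjusted p = 0.019 by limma). Its control mean of 0.91 FPKM means that it entered the test through the knockdown arm.

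Otx2, which holds epiblast cells in the primed state and is later needed for the head, was the 1 gene of the 6 not called. It stood at 69.5, 70.4, 20.8 and 11.2 FPKM in knockdown cells, against 71.7, 71.2, 19.5 and 13.0 FPKM in control cells. The knockdown value was the higher only at 105 min, and the authors' limits of the arms overlapped at every time. The fitted difference was -0.04 ± 0.05 log2 units (SE, adjusted p = 0.54 by limma).

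**Figure D2:**
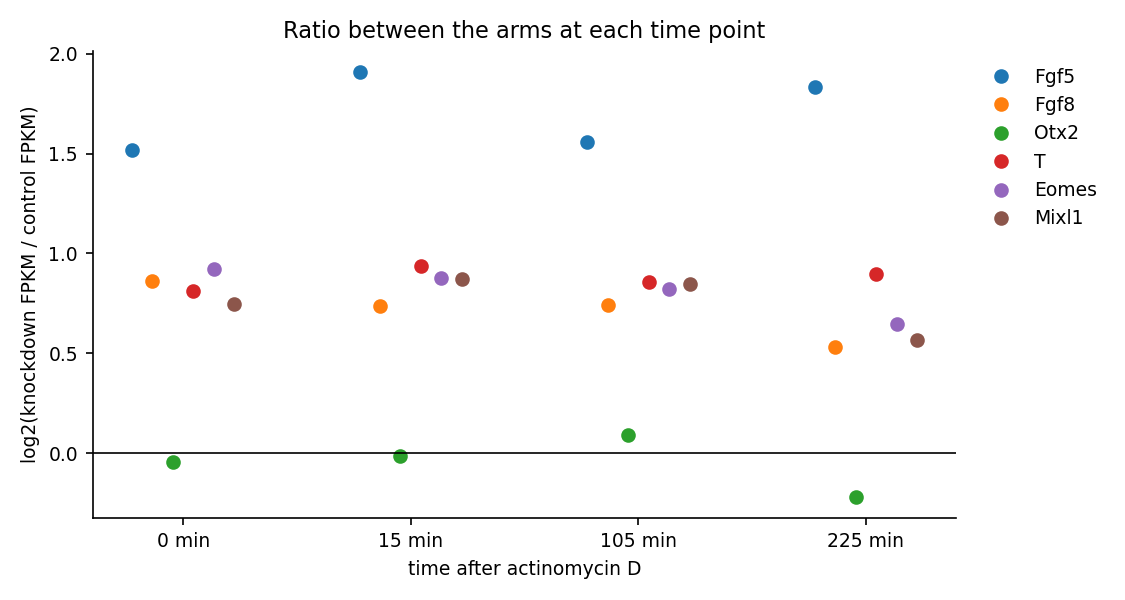
Log2 ratio of FPKM, Upf3a knockdown over control (vertical axis), at each time after actinomycin D (horizontal axis), 1 point per gene without the added 1 FPKM. Fgf5 lies between 1.52 and 1.91, Fgf8, T, Eomes and Mixl1 between 0.53 and 0.94, and Otx2 between -0.22 and 0.09.

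The authors' limits gave a second reading that does not pool times. The limits of the arms lay apart, with knockdown above control, for Fgf5 and T at all 4 times, for Eomes at 0 min alone, and for Fgf8, Otx2 and Mixl1 at no time. Over all genes tested this was seen for 0.576% at 0 min, 1.14% at 15 min, 0.961% at 105 min, 1.41% at 225 min and 0.288% at all 4 times. When the time point was left out of the fit, the fall over time entered the spread, and of the 6 genes only Fgf5 (adjusted p = 0.048) and T (adjusted p = 0.0042) passed limma. The labels are silent on whether the time points of an arm came from a single transfection.

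Before the block, at 0 min, the order of levels in knockdown cells was T, Otx2, Fgf8, Eomes, Fgf5 and Mixl1. In control cells it was Otx2, T, Fgf8, Eomes, Fgf5 and Mixl1. By the authors' limits T and Otx2 overlapped in both arms, and in knockdown cells Otx2 also overlapped Fgf8 and Eomes overlapped Fgf5, while the other neighbours lay apart. At 225 min T stood above Fgf8 with limits apart in both arms. Otx2 had dropped below Fgf8, with limits apart in knockdown cells and overlapping in control cells. Fgf5 (5.27 FPKM) had passed Eomes (4.04 FPKM) in knockdown cells within overlapping limits.

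The second comparison asked how fast the mRNAs were lost after transcription stopped. Since FPKM has no outside standard, a slope here is relative to the bulk of mRNA, and a flat course means loss at about the speed of the median mRNA. In the fit over both arms (limma, time in hours plus arm), 5 of the 6 fell with an adjusted p below 0.05 and T did not pass. None of the 6 was called rising. Among tested genes 38.6% were called falling and 42.7% rising, and with ribosomal protein genes as the scale 10688 genes fell and 49 rose. The median slope of all genes was 0.01 log2 units per hour, beside a median of -0.27 for the 6.

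Otx2 had the steepest slope of the 6. In knockdown cells its level was 101%, 29.9% and 16.0% of the 0 min value after 15, 105 and 225 min. In control cells it was 99.3%, 27.2% and 18.1%. In both arms most of the drop came between 15 and 105 min. The slope was -0.70 ± 0.07 log2 units per hour (SE, adjusted p = 3.2e-05 by limma), a relative half-life of 1.43 h, and 0.428% of tested genes had a slope as steep or steeper. Without 225 min the slope was -1.07, and with 0.1 FPKM added in place of 1 FPKM it was -0.72. The authors' limits at 105 and 225 min lay below those at 0 min in both arms.

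Eomes had the next steepest slope. In knockdown cells it was at 91.8%, 48.0% and 21.5% of its 0 min level after 15, 105 and 225 min, and in control cells at 94.8%, 51.5% and 26.0%. It was lower at each later time in both arms, with a slope of -0.48 ± 0.02 (SE, adjusted p = 9.7e-07 by limma) and a relative half-life of 2.06 h. That half-life is on the log2(FPKM + 1) scale, and with 0.1 FPKM added instead the slope of Eomes was -0.55. Mixl1 had 26.4% of its 0 min level left at 225 min in knockdown cells and 29.9% in control cells, so in plain FPKM it was lost nearly as far as Eomes. Its fitted slope of -0.26 ± 0.04 (SE, adjusted p = 3.0e-04 by limma) is smaller because of the added 1 FPKM and was -0.48 with 0.1 FPKM added. Limits of Mixl1 were wide, and lay below those at 0 min only at 225 min in knockdown cells, while those of Eomes at 225 min did so in both arms.

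The ligands kept more of their mRNA. Fgf5 had 44.5% left at 225 min in knockdown cells and 35.8% in control cells, with a slope of -0.28 ± 0.02 (SE, adjusted p = 7.9e-06 by limma) and a relative half-life of 3.63 h. The limits of Fgf5 at 225 min lay below those at 0 min in both arms. Fgf8 stood at 118% of its 0 min level in knockdown cells and 128% in control cells at 15 min, and at 62.3% in knockdown cells and 78.4% in control cells at 225 min, with limits that overlapped those at 0 min throughout. Its slope was -0.17 ± 0.03 (SE, adjusted p = 0.0014 by limma), and without 225 min it did not pass (-0.14, adjusted p = 0.13).

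T was the 1 gene of the 6 not called falling. At 15 min T was at 93.5% of the 0 min level in knockdown cells and 85.5% in control cells. Both lay below the lower quartile of all tested genes, 94.5% in knockdown cells and 92.1% in control cells. At 225 min T was at 107% of the 0 min level in knockdown cells and 101% in control cells, where the median of all tested genes was 105% in knockdown cells and 102% in control cells. Its slope was 0.04 ± 0.02 (SE, adjusted p = 0.13 by limma), and its sign depends on the scaling. It was 0.05 (adjusted p = 0.049) with median-of-ratios scaling, -0.088 (adjusted p = 0.0026) after quantile normalization, and -0.25 (adjusted p = 2.5e-06) when ribosomal protein genes set the scale, which moved the median slope of all genes to -0.23. Eomes, the other T-box gene that was higher in knockdown cells, had 21.5% left at 225 min in knockdown cells and 26.0% in control cells.

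**Figure D3:**
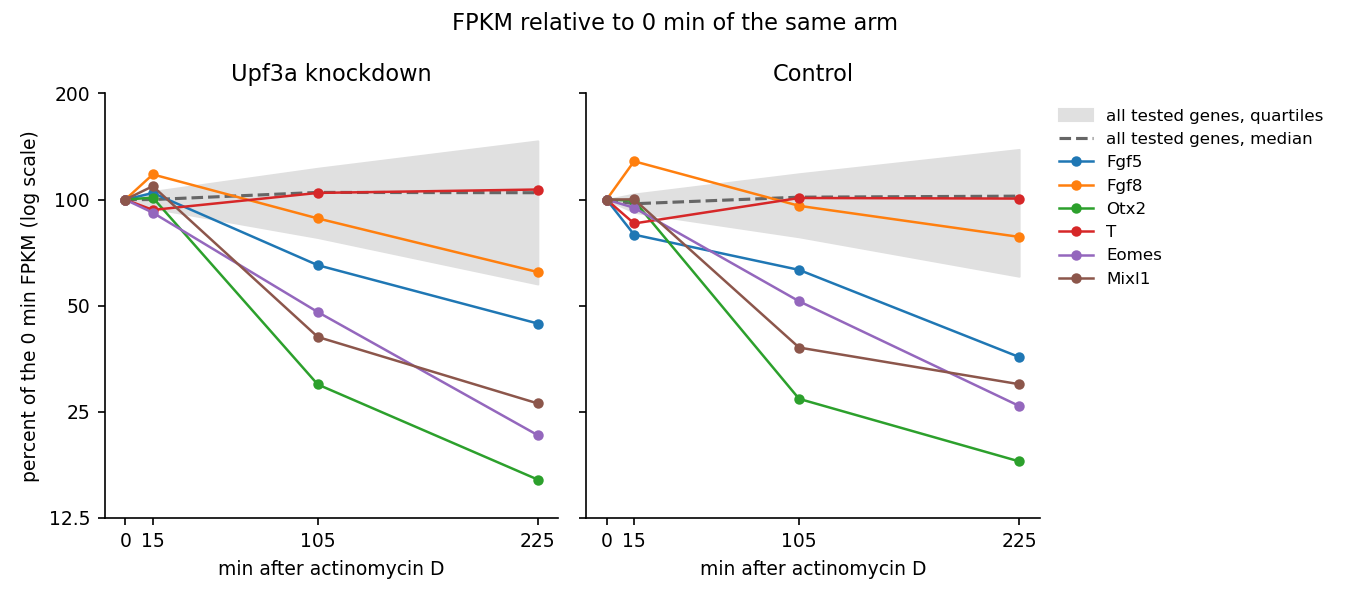
FPKM as a percentage of the 0 min value of the same arm (vertical axis, log scale) against minutes after actinomycin D (horizontal axis), in Upf3a knockdown cells (left) and control cells (right), with the median and quartiles of all tested genes in grey. Otx2 ends at 16.0% in knockdown cells and 18.1% in control cells, while T ends beside the grey median in both arms. At 15 min T lies below the grey quartiles, at 93.5% in knockdown cells and 85.5% in control cells.

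The third comparison asked whether the speed of loss differed between the arms. It was measured as the hourly change in the log2 ratio of knockdown to control, on the FPKM + 1 scale. None of the 6 genes passed limma, and over all genes 1 gene was called, or 0.00873%. At an unadjusted p below 0.05 there were 3 of the 6 genes and 762 of all 11452, and with trend and robust settings limma again called none of the 6. The differences, knockdown minus control with SE, were -0.09 ± 0.03 log2 units per hour for Eomes (adjusted p = 0.67), -0.09 ± 0.03 for Mixl1 (adjusted p = 0.70) and -0.07 ± 0.03 for Fgf8 (adjusted p = 0.73). For these 3 the ratio between the arms was smallest at 225 min, at 1.57 for Eomes, 1.48 for Mixl1 and 1.45 for Fgf8. The difference was -0.04 ± 0.04 for Fgf5 (adjusted p = 0.84), -0.04 ± 0.03 for Otx2 (adjusted p = 0.81) and 0.01 ± 0.03 for T (adjusted p = 0.97). For Fgf5 the sign depends on the added FPKM, at 0.020 with 0.1 FPKM added and -0.086 with 5 FPKM added. In plain FPKM the ratio of Fgf5 was larger at 225 min (3.56) than at 0 min (2.86). For T the arms' own slopes were 0.04 in knockdown cells and 0.03 in control cells, and for Otx2 they were -0.72 in knockdown cells and -0.68 in control cells. Not passing does not show equal decay, since the fit has 2 residual degrees of freedom before moderation.

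**Figure D4:**
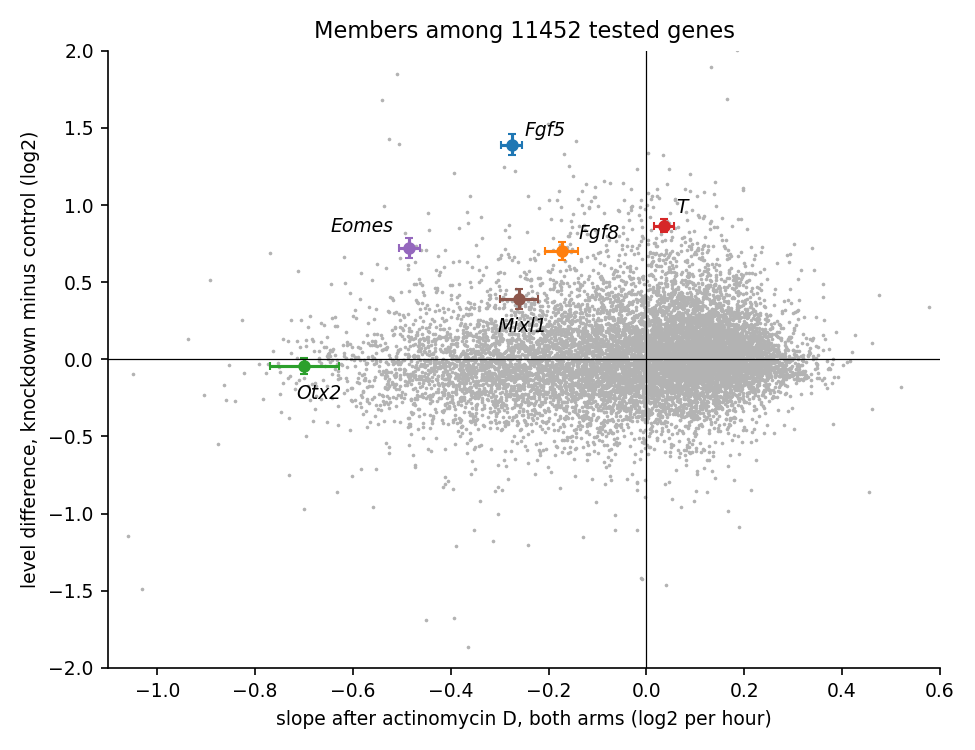
Level difference between the arms (vertical axis, log2, knockdown minus control) against the slope after actinomycin D over both arms (horizontal axis, log2 per hour) for 11452 tested genes (grey) and the 6 genes with SE bars; 22 genes lie outside the plotted range. Fgf5, Fgf8, T, Eomes and Mixl1 lie above 0 at slopes from -0.48 to 0.04, and Otx2 lies near 0 at -0.70.

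The 3' untranslated regions were read for elements known to mark short-lived mRNAs, on GENCODE vM21 (GRCm38), from the longest coding transcript of each gene. The pentamer AUUUA, the core of AU-rich elements, was counted as ATTTA on the transcript strand, and 69.8% of 10064 tested genes with an annotated region hold at least 1, with a median of 2. Fgf5 holds 4, Otx2 2, Eomes 1 and Mixl1 1, while Fgf8 and T hold none in the shortest regions of the 6, 172 and 627 bases. The nonamer TTATTTATT, found in 8.11% of genes, is in none of the 6. The Pumilio motif TGTANATA, found in 27.4%, is in Mixl1 alone. The sites of the 3 mRNAs with the largest share lost are printed as DNA letters 5′ to 3′ with the match in capitals, together with the site of Fgf5 nearest to its stop codon. Positions are on GRCm38. A match is a description of the letters. Otx2, the fastest mRNA of the 6, holds the median number in its longest transcript. The deposited locus of Otx2 has its 3' end at 48658183, so the site at 48657854 to 48657878 lies outside it. Whether the measured mRNA holds both sites was not tested.
Otx2, chr14:48658175-48658199, minus strand, 517 bases after the stop codon: gcactactttATTTAaaaaaaaaaa
Otx2, chr14:48657854-48657878, minus strand, 838 bases after the stop codon: ttcacccgtaATTTAatgttggtaa
Eomes, chr9:118485262-118485286, plus strand, 260 bases after the stop codon: ggattgattcATTTAtgggaaacga
Mixl1, chr1:180693570-180693594, minus strand, 1035 bases after the stop codon: ccttaagatcATTTAcccaaaatgt
Mixl1, Pumilio motif, chr1:180693884-180693908, minus strand, 719 bases after the stop codon: atatgaaaTGTAGATAttaactata
Fgf5, chr5:98275699-98275723, plus strand, 157 bases after the stop codon: gctttctaaaATTTAagtcgaaaca

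The level difference of 5 of the 6 was already present at 0 min, 24 h after the siRNA. Whether it arose through transcription or through stability was not tested. Promoters were read as well, as a description of their letters. RefSeq promoter windows (GRCm38.p6, 250 bases before to 50 after the start) were at hand for 4 of the 6 genes, Fgf5, Otx2, T and Eomes, with 7 windows in all. Short motifs were searched on both strands, chosen with the windows in view. The TCF/LEF motif TTCAAAG, bound by effectors of Wnt signalling, occurs in 5.14% of 32851 windows and, of these genes, in T alone. The T-box core AGGTGT occurs in 13.7% of windows and in T and Fgf5. The OTX motif TAATCC occurs in 7.06% of windows and in Otx2 alone, and the SMAD motif CAGAC in 49.6% of windows and in none of these genes. The deposited locus of Otx2, on the minus strand, spans 48658183 to 48662872, and the start site beside its OTX match lies outside that locus. The 4 matches follow, with the match in capitals, on the strand of the gene.
T, TCF/LEF, chr17:8434179-8434203, plus strand: gctcggtacTTCAAAGggtgtcccg
T, T-box core, chr17:8434400-8434424, plus strand: cagggacccAGGTGTaatctttggg
Fgf5, T-box core in reverse complement, chr5:98254053-98254077, plus strand: gagggcgagACACCTcctcccactc
Otx2, OTX motif in reverse complement, chr14:48665305-48665329, minus strand: gtgcccctcGGATTAtctcgttagt

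On GRCm38 Fgf5 lies on chromosome 5 at 98254184 to 98277030 (plus strand), Fgf8 on chromosome 19 at 45736798 to 45742915 (minus), Otx2 on chromosome 14 at 48657677 to 48673819 (minus), T on chromosome 17 at 8434423 to 8442496 (plus), Eomes on chromosome 9 at 118478212 to 118486132 (plus) and Mixl1 on chromosome 1 at 180693043 to 180697034 (minus). Exons of Eomes overlap those of an antisense transcript, Gm33460, and exons of Otx2 those of Otx2os1, which runs opposite to it, and of Gm49154 on the same strand, whose reads cannot be told from those of Otx2 where they overlap. The labels are silent on strand, so reads of such pairs may be mixed. In the deposited table the locus of Otx2 spans 48658183 to 48662872, inside the annotated span. How far reads were mixed was not tested.

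The other genes of these states were set beside the 6 as lists. These lists were chosen with earlier results of these data known. Their shares beside those of all genes describe the lists and are no test of them. Of 29 genes of the primitive streak, mesoderm and endoderm, 17 had a mean FPKM of 1 or more, and of these 13 were higher in knockdown cells by limma and 4 did not pass. None was lower, also at an unadjusted p below 0.05. All tested genes had 26.1% higher and 22.3% lower. The 13 became 3 without the time term and 7 of the fewer genes with a mean of at least 5 FPKM. Their median level difference was 0.34 log2 units, beside 0.0046 for all genes tested. Tdgf1, the co-receptor of Nodal, averaged 103 ± 5.89 FPKM in knockdown cells and 47.3 ± 2.41 FPKM in control cells (SD, n = 4 time points). The Wnt ligand Wnt8a averaged 23.7 ± 1.24 FPKM in knockdown cells and 13.8 ± 0.21 FPKM in control cells. Lefty2, a Nodal inhibitor, averaged 18.5 ± 1.23 FPKM in knockdown cells and 10.7 ± 0.62 FPKM in control cells. Fst, which binds activin, averaged 31.8 ± 21.5 FPKM in knockdown cells and 18.8 ± 11.7 FPKM in control cells. Of the 12 untested genes 7 stayed below 1 FPKM in every condition, among them Mesp1, Msgn1 and Sox17. The other 5 reached it at least once, with highest values of 1.97 FPKM for Sp5, 1.93 for Foxa2, 1.69 for Kdr, 1.203 for Tbx6 and 1.09 for Gata4. Kdr, a receptor of vascular progenitors, averaged 1.38 FPKM in knockdown cells and 0.58 FPKM in control cells.

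Of 16 genes of the primed and formative epiblast 6 were higher, 3 lower and 7 did not pass, with a median of 0.06 log2 units. Those shares lie near the 26.1% higher and 22.3% lower of all genes. The 3 lower became 0 when ribosomal protein genes set the scale and 1 without 105 min or without 225 min, and the 6 higher became 1 without the time term. Utf1, a chromatin factor of undifferentiated cells, averaged 264 ± 23.0 FPKM in knockdown cells and 133 ± 20.1 FPKM in control cells. The DNA methyltransferases Dnmt3b and Dnmt3a differed by 0.65 and 0.46 log2 units and the ETS factor Etv4 by 0.54. The 3 lower genes, named after their values were seen, were Lin28b at -0.21, Zic5 at -0.19 and Cdh2 at -0.13 log2 units.

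The counts of the lists that follow stand beside 26.1% higher and 22.3% lower of all tested genes. Counts near those shares do not set a list apart. Of 15 genes of naive pluripotency 7 were tested, with 3 higher and 2 lower (median -0.0082): Klf2 differed by 0.49 log2 units, Tdh by 0.27, Nr0b1 by 0.20 and Dppa3 by -0.15. The naive list had 0 lower with each of the 3 other scalings, with 5 FPKM added, with a mean of at least 5 FPKM, and without 0, 15 or 105 min. Of 18 neural and anterior genes 4 were tested, with none higher, also at an unadjusted p below 0.05. Tubb3 was lower at -0.19, while Nes, Dcx and En2 (0.10, 0.06 and 0.03) did not pass. Tubb3 was not called when ribosomal protein genes set the scale, without 105 min or without the time term. Among 25 other FGF ligands and receptors 8 were tested, with 2 higher and 3 lower (1 higher with 0.1 FPKM added, with no filter, or without 0, 15 or 105 min, and 1 lower with a mean of at least 5 FPKM). Fgfr1, the main FGF receptor of the epiblast, averaged 53.6 ± 5.16 FPKM in knockdown cells and 37.9 ± 2.30 FPKM in control cells, while Fgfrl1, Fgfr2 and Fgfr3 differed by -0.57, -0.23 and -0.17 log2 units. Of 15 other T-box genes 3 were tested and none passed limma, with 1 at an unadjusted p below 0.05: Mga was at 0.12, Tbx3 at -0.04 and Tbx1 at -0.04. Of 24 homeobox genes related to Otx2 and Mixl1 4 were tested, among them Prrx2, higher at 0.37, Phox2a, lower at -0.33, and Gsc, at 0.02, which did not pass.

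**Figure D5:**
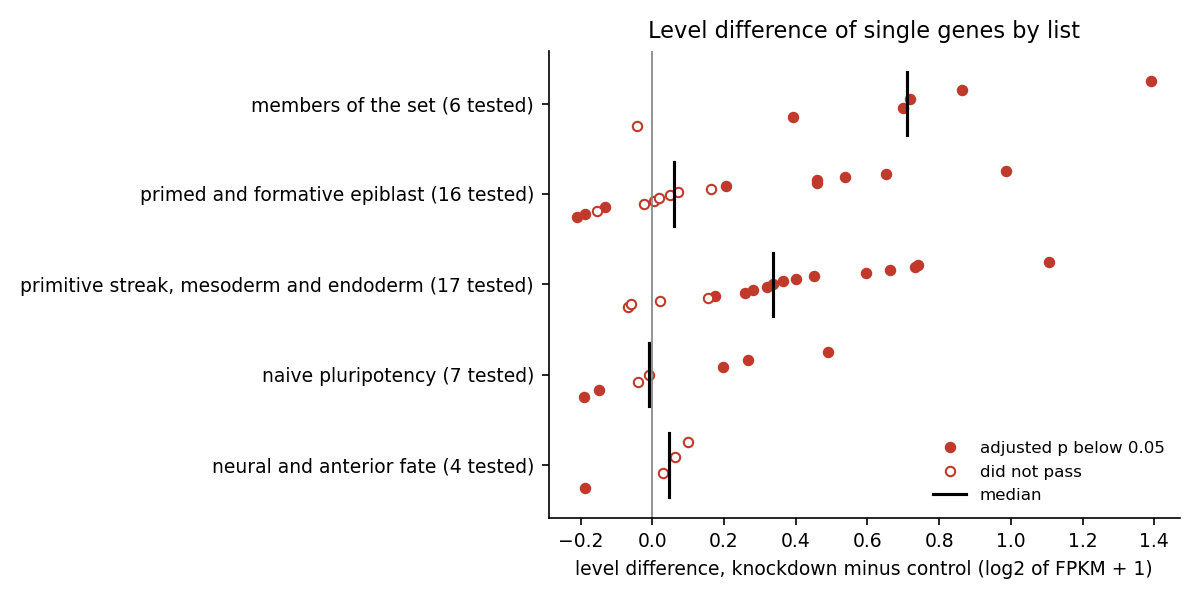
Level difference of single genes (horizontal axis, knockdown minus control on the log2 scale of FPKM + 1) for the 6 genes and 4 of the lists (rows); filled points passed an adjusted p of 0.05, open points did not, and black bars are medians. The 6 genes have a median of 0.71, the streak list 0.34, and the primed epiblast list 0.06. The 6 genes and the lists were chosen with earlier results of these data known.

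Genes with the most similar course over the 8 conditions were found by Pearson correlation of log2(FPKM + 1) among 7539 genes that averaged at least 5 FPKM. The 8 points share the arm and the time, so a high r describes a like mix of both. Fgf5 was nearest to Prmt6, Nanog and Ankle2 (r = 0.995, 0.994 and 0.991), Fgf8 to Wdr59, Gramd1a and Efs (0.981, 0.975 and 0.972), and T to Ccnd1, Myo5a and Iqgap3 (0.995, 0.993 and 0.992). Otx2 was nearest to Topors, Map3k1 and Jmjd1c (each 0.999), Eomes to Lrp6, Zfp334 and Fem1b (0.998, 0.998 and 0.997), and Mixl1 to Ahdc1, Repin1 and Epha2 (0.993, 0.986 and 0.983). Among the 6 themselves the closest were Eomes and Mixl1 (r = 0.96) and Fgf5 and Fgf8 (r = 0.94), and Otx2 and T were at -0.16.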

How the data were processed

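RNA from P19 cells was sequenced in 8 conditions. Reads were aligned with TopHat2 and quantified with Cufflinks on mm10, per the submitters' processing notes; versions and annotation are not given in the sources used here. The deposited table gives FPKM per gene and condition with a lower and an upper limit of unstated level, per the file headers; the 2 cultures listed per condition had been combined by the authors. The status field, a text with no number, marked 3 genes as failed, none of them described here. FPKM is no count, so read depth is unknown.

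log2(FPKM + 1) was analysed with limma 3.58.1 in R 4.3.3 (tables with Python 3.11.15) for 11452 genes, eBayes without trend, Benjamini-Hochberg adjusted p below 0.05. Scripts were tested on simulated data. Alternatives changed the pseudocount, filter, scaling, moderation, time term and time points. From each list up to 4 genes with the largest moderated t are named, with 3 most similar genes per member. The members and the 9 lists were chosen with earlier results of these data known. Some genes of the lists are not reported here.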

Additional observations from a re-analysis of the deposited data

How the results depend on the processing

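The count of the 6 genes called higher stayed at 5, apart from 4 with a mean FPKM of 5 or more (which leaves out Mixl1) and 2 without the time term. The count called falling stayed at 5, apart from 4 with that filter, 6 after quantile normalization or with ribosomal protein genes as the scale, and 4 without 225 min. Without the time term 358 genes were called higher and 129 lower, against 2986 and 2557. With a mean FPKM of 5 or more 1656 were lower and 2685 falling, against 2557 and 4423. With ribosomal protein genes as the scale 3826 were higher, 1282 lower, 10688 falling and 49 rising. Decay-rate differences of all genes numbered 0 with no filter, 6 with trend and robust settings, and 2 to 22 over the time points left out, against 1.

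Otx2's level difference was 0.039 on the ribosomal protein scale and ran from -0.086 to 0.0095 over the time points left out. T's slope was -0.088 after quantile normalization and -0.25 on the ribosomal protein scale. The decay-rate difference of Fgf5 was 0.020 with 0.1 FPKM added and ran from -0.105 to 0.0052 over the time points left out. That of T was -0.050 after quantile normalization and -0.032 on the ribosomal protein scale, and ran from -0.0098 to 0.023. That of Otx2 ran from -0.058 to 0.072. The causes were not tested. Among the lists, those of the streak, the primed epiblast, the naive state and undifferentiated markers had 3, 1, 0 and 1 genes called higher without the time term, against 13, 6, 3 and 4. The main level fit pairs the arms by time point, and the fit without the time term is the unpaired one.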
